A study of Mus musculus with 35 samples.

Results

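The effect of carrying a Gad1 reporter signal was set against the effect of carrying an Ins2 reporter signal in mouse medullary thymic epithelial cells (mTECs). For each gene, the log2 difference between Gad1-positive and Gad1-negative cells was taken first, then the same difference for the Ins2 sort was subtracted from it. A positive value of this difference of differences means that the transcript moved higher with the Gad1 reporter than with the Ins2 reporter. The comparison used 12 of the study's 35 arrays, which are 3 arrays each of 4 groups. Of 46089 probes, 35667 carried 1 gene symbol, and 24770 of these were detected on at least 2 arrays of 1 of the 4 groups. They represented 16634 of 21903 named genes, each read on 1 probe.

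The study sorted mTECs positive and negative for 6 antigens and measured their RNA on Illumina bead arrays. Gad1 and Ins2 were read from reporter mice, the other antigens with antibodies. The 4 groups here were Gad1-negative, Gad1-positive, Ins2-negative and Ins2-positive mTECs, all isolated by FACS and labelled from 200 ng of total RNA. The reporter constructs, the strains, the ages, the sort gates and any pooling of animals are not given in the sources used here, so the groups are defined by the reporter label alone. Each group's 3 arrays are labelled as biological replicates, but separate animals are not mentioned, so p-values measure the spread between these samples, which may be technical.

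Medullary thymic epithelial cells transcribe many genes that are otherwise restricted to peripheral tissues and show the products to developing T cells, which removes cells that would attack the body. Each such antigen is made by a small fraction of the cells at a time, and many of the genes depend on the transcriptional regulator Aire. Gad1 codes for a glutamate decarboxylase that makes the transmitter GABA, and Ins2 codes for an insulin. In the mouse thymus, Ins2 is known as an Aire-dependent antigen, whereas Gad1 is known to be transcribed without Aire. The question of the comparison was which transcripts accompany one antigen more than the other.

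All 4 groups carried the transcripts of mTECs. Krt8 and Krt18, keratins of simple epithelium, had log2 intensities of at least 12.92 and 11.10 on every array. Aire ran from 11.98 to 12.89 over the 12 arrays and Fezf2, a second regulator of such antigens, from 12.83 to 14.03. The surface marker Epcam was near background, detected on 4 of the 12 arrays. Between 50.2% and 57.3% of probes were detected per array. The share was 51.5% to 52.4% on the Gad1-negative arrays and 55.8% to 57.3% on the Gad1-positive ones, and 54.8% to 57.3% on the Ins2-negative arrays and 50.2% to 52.5% on the Ins2-positive ones, so it moved in opposite directions in the sorts. Its part in the results was not tested. The intensity below which 99% of probes lay was 12.05 to 12.12 on the Gad1-sort arrays and 11.65 to 11.72 on the Ins2-sort arrays (log2). Levels set across the sorts carry this difference of scale. Arrays of a group correlated at 0.987 to 0.993 (Pearson, log2 values). With 3 arrays a group, precision is limited.

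The transcripts of both sorted antigens differed between the sorts, and Ins2 rose more with the Gad1 reporter than with its own. Ins2 intensity was 7.25, 7.31 and 7.26 on the Gad1-negative arrays and 9.28, 9.32 and 9.13 on the Gad1-positive arrays (log2). It was 7.24, 7.44 and 7.33 on the Ins2-negative arrays and 8.18, 8.35 and 8.46 on the Ins2-positive arrays. The groups did not overlap in either sort. The rise was 1.97 (3.93-fold) in the Gad1 sort and 1.00 (2.00-fold) in the Ins2 sort, a difference of 0.97 (SE 0.16, limma adjusted p = 7.5e-05). With neqc background correction of the unnormalized intensities, which lacks 1 Ins2-negative array, the rises were 2.85 and 1.72 and the difference 1.13. Gad1 intensity was 8.22, 7.97 and 7.81 in Gad1-negative and 8.47, 8.28 and 8.74 in Gad1-positive cells. It was 8.60, 8.32 and 7.95 in Ins2-negative and 7.94, 7.92 and 7.56 in Ins2-positive cells. The groups again did not overlap, but in the Ins2 sort the lowest negative array lay only just above the highest positive one. Gad1 rose by 0.50 in the Gad1 sort (adjusted p = 0.013) and fell by 0.48 in the Ins2 sort (adjusted p = 0.017), a difference of 0.98 (SE 0.22, adjusted p = 0.0023). The difference was called without any 1 of the 12 arrays. The rise was not called without Gad1-negative replicate 3 (0.40, adjusted p = 0.082) or Gad1-positive replicate 3 (0.38, adjusted p = 0.097). The fall was not called without Ins2-negative replicate 1 (-0.33, adjusted p = 0.14), Ins2-negative replicate 2 (-0.47, adjusted p = 0.054) or Ins2-positive replicate 3 (-0.36, adjusted p = 0.11). Ins1, the other mouse insulin gene, was not named on the array. Bead intensities were not background-subtracted in the deposited tables, so folds are compressed, most of all for dim genes.

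Most genes that moved in both sorts moved the same way. At an adjusted p under 0.05, 3303 genes rose and 2913 fell in the Gad1 sort (19.9% and 17.5% of the 16634 tested, 37.4% either way), and 2955 rose and 2966 fell in the Ins2 sort (17.8% and 17.8%, 35.6% either way). In all, 3427 genes were called in both sorts, 1525 of them up in both and 1505 down in both. For 1210 of the 1525 genes up in both (79.3%), the difference between the effects was not called. Across genes, the effects of the sorts, which share no array, correlated at 0.62 (Pearson) and 0.47 (Spearman), as a description over genes that are not independent. The difference itself was called for 1873 genes with a higher Gad1 effect (11.3%) and 1466 with a higher Ins2 effect (8.81%), or 20.1% either way. Counts of called differences in the gene groups below stand against these shares of all genes. Differences above 1 in size were uneven, with 488 called genes higher with Gad1 and 93 higher with Ins2. Opposite calls were made for 310 genes up in the Gad1 sort and down in the Ins2 sort (1.86%) and for 87 genes in the reverse arrangement (0.523%). The count of 87 was 49 to 57 without Gad1-negative replicate 1, Gad1-positive replicate 1, Ins2-negative replicate 1, Ins2-negative replicate 2 or Ins2-positive replicate 3. Of all 3339 called differences, 2106 were called with the same sign in every fit that left out 1 array. More than 1 probe was kept for 1285 of the called genes. For 884 of those genes the difference had 1 direction on every kept probe, and for the rest at least 1 probe disagreed in sign.

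**Figure D1:**
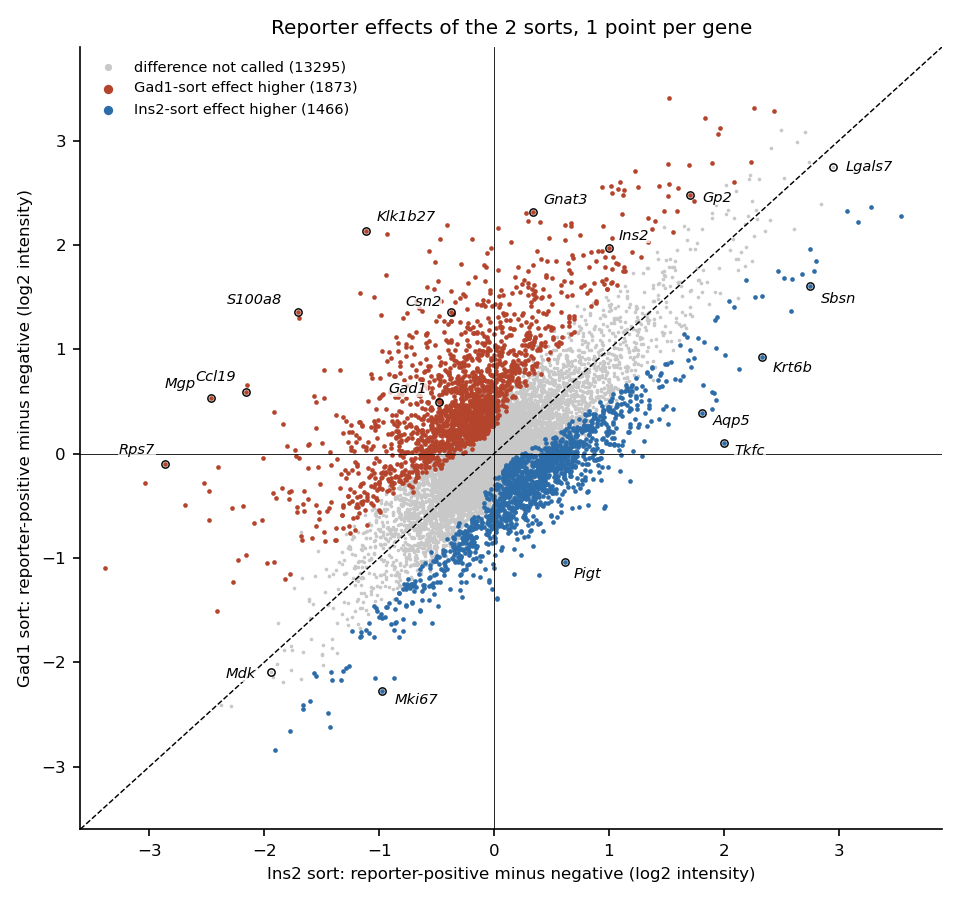
Effect of the Ins2 reporter (x axis) against effect of the Gad1 reporter (y axis), both as positive minus negative cells in log2 intensity, with 1 point for each of 16634 genes. Red points are the 1873 genes with a higher Gad1 effect, blue points the 1466 with a higher Ins2 effect, and the dashed line marks equal effects.

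Many ribosomal protein genes moved lower in the Ins2 sort than in the Gad1 sort, and genes of short span were called toward Gad1 more often than toward Ins2. This pattern was noticed after the values were seen and is described here without a test, because it moved with several of the gene groups that follow. The median log2 intensity of 53 cytosolic ribosomal protein genes was 13.10 to 13.14 on the Gad1-negative arrays and 12.47 to 12.84 on the Gad1-positive arrays. It was 12.40 to 12.49 on the Ins2-negative arrays and 11.01 to 11.18 on the Ins2-positive arrays, lower than on all other arrays. Of the 53 genes, 45 fell in the Ins2 sort and 34 in the Gad1 sort, and 25 had a higher Gad1 effect and 2 a higher Ins2 effect. Rps7, a protein of the small subunit, was at 13.17, 13.71 and 13.34 in Gad1-negative and 13.39, 13.27 and 13.25 in Gad1-positive cells. It was at 12.83, 12.98 and 12.94 in Ins2-negative cells and at 9.99, 10.20 and 9.97 in Ins2-positive cells. Its difference between the sorts was 2.77 (SE 0.16, limma adjusted p = 3.5e-11), with overlapping groups in the Gad1 sort and a wide gap in the Ins2 sort. Rps6 (2.24), Rpl27 (1.97) and Rpl7a (1.68), chosen after their values were seen, differed in the same direction. These genes lay far above the median difference of the 53, which was 0.34. The median effects of the 53 were -0.37 in the Gad1 sort and -0.83 in the Ins2 sort. Of 80 mitochondrial respiratory chain genes, 20 had a higher Gad1 effect and 4 a higher Ins2 effect. Genomic span was known for 15252 genes (91.7%), which were divided into 5 groups of like size. The shortest-span group (88 to 5739 bases) held 18.7% with a higher Gad1 effect and 6.49% with a higher Ins2 effect. The median difference of that group was 0.03, and most of its genes were not called. In the other 4 groups the shares were 8.59% to 12.5% and 6.62% to 11.3%. Over all genes, span and the difference correlated at -0.06 (Spearman). RNA quality values are not given in the sources used here. The part of RNA quality on the Ins2-positive arrays and of gene size, in this pattern and in the gene groups that follow, was not tested.

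**Figure D2:**
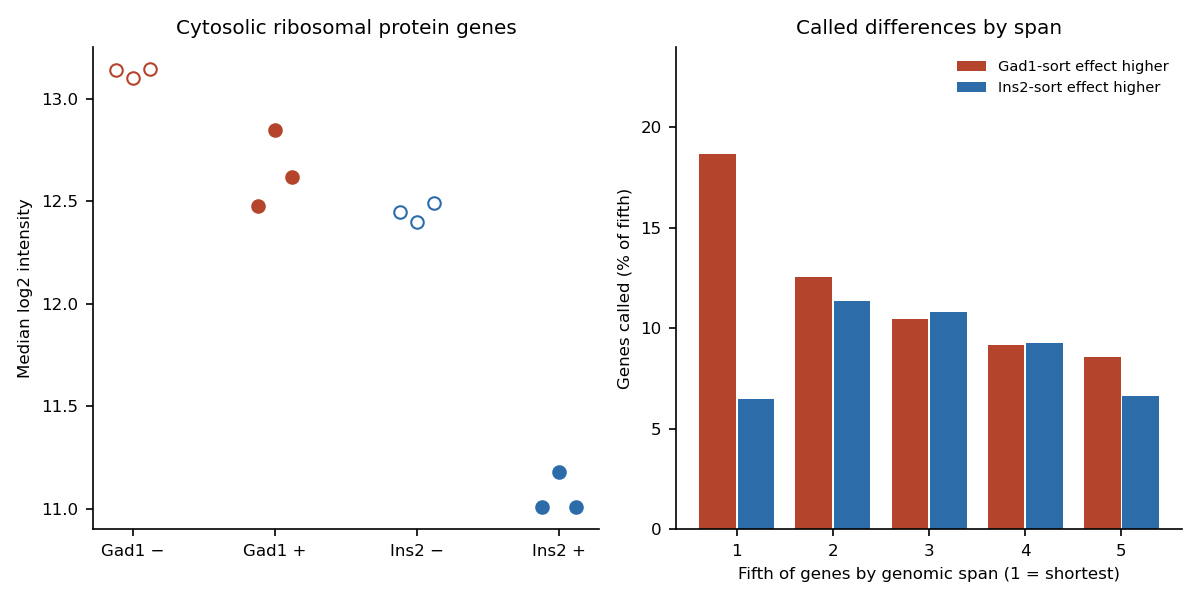
Left, median log2 intensity of 53 cytosolic ribosomal protein genes on each array, with open circles for negative and filled circles for positive cells. Right, share of genes called with a higher Gad1 effect (red) or a higher Ins2 effect (blue) in each of 5 groups of genes by genomic span, with 18.7% and 6.49% in the shortest-span group.

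The Klk1 cluster, a row of serine protease genes known from the salivary gland and kidney, moved with the Gad1 reporter and largely not with the Ins2 reporter. All 12 members tested rose in the Gad1 sort, with a median effect of 1.54. In the Ins2 sort 2 rose and 1 fell, with a median of 0.04. The difference was called as a higher Gad1 effect for 11 of 12 (91.7% against 11.3% of all genes), with a median of 1.50 against -0.01 over all genes tested. Probes of such close paralogs can bind each other's transcripts, so the members are not separate measurements. Klk1b27 had the largest difference among genes detected in all groups and called in every fit, with provisional gene names such as those ending in Rik left out. Its intensity was 9.32, 10.04 and 10.03 in Gad1-negative cells and 11.93, 12.01 and 11.84 in Gad1-positive cells. It was 10.46, 10.44 and 10.23 in Ins2-negative cells and 9.17, 9.23 and 9.39 in Ins2-positive cells. The groups of each sort lay apart, in opposite order, and the difference was 3.25 (SE 0.21, adjusted p = 3.4e-10). Klk1b1 stood for the common pattern, at 8.95, 9.24 and 9.05 in Gad1-negative and 10.85, 11.01 and 10.67 in Gad1-positive cells. In the Ins2 sort its groups overlapped, at 9.94, 9.61 and 9.40 in negative and 9.56, 9.66 and 9.84 in positive cells. Klk1b26 rose in both sorts, by 1.90 and 0.78. For Klk1b16, which rose by 0.68 and 0.50, the difference of 0.18 was not called (95% interval -0.11 to 0.48). Of the 12 members, 10 lay in the shortest-span group, and all 10 had a higher Gad1 effect, against 18.7% of all genes in that group.

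The promoters of these members are shown because related sequences, most of all the pair Klk1b27 and Klk1b21, went with different effects in the Ins2 sort. They are RefSeq sequences of build GRCm38.p6 that run from 250 bases before to 50 bases after the annotated start, and all 12 members had one. Capitals mark TTTAAA, a motif chosen after the sequences were seen, which reads the same on both strands.
Klk1b27 promoter, chr7:44052040-44052339, plus strand: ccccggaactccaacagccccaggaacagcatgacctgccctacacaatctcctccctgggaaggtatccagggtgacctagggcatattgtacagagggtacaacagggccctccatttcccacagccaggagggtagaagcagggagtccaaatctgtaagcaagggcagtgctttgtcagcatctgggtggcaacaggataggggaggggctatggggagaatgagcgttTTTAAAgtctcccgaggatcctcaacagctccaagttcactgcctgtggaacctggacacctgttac
Klk1b21 promoter, chr7:44102042-44102341, plus strand: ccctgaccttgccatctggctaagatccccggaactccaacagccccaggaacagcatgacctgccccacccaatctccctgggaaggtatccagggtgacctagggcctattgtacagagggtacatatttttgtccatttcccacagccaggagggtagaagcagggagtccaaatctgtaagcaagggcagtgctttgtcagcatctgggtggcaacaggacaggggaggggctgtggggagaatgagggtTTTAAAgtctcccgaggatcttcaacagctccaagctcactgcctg
Klk1b26 promoter, chr7:44012428-44012727, plus strand: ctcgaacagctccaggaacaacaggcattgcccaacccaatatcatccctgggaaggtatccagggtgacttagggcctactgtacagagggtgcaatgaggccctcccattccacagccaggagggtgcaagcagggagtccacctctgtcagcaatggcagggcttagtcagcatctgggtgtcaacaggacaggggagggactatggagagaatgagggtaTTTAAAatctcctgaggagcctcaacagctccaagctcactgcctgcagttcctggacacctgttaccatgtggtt
Klk1b16 promoter, chr7:44137040-44137339, plus strand: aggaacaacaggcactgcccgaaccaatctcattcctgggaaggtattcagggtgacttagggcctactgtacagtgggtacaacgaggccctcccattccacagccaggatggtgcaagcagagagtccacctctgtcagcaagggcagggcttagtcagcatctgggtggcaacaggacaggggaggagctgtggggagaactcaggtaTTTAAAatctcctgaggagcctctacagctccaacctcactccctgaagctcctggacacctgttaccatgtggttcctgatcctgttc
TTTAAA was present in 11 of the 12 windows, all but that of Klk1, and in 9 of them it lay wholly between 45 and 16 bases before the start. The Klk1 window ended with the bases that stand directly before the motif in Klk1b21. Whether Klk1 holds the motif beyond its window can therefore not be read from these sequences. In Klk1b27 its first base was at -17 and in Klk1b21 at 4, counted from the start site. Of 27025 promoters of the same length, 1 for each gene, 13.2% held TTTAAA and 1.67% held it in that interval. TATAAA, searched on both strands, was found in none of the 12 windows and in 14.2% of the 27025. The aligned promoters were 78.4% to 97.7% identical in the 66 pairs of members, with a median of 86.1%. Pairs with Klk1 aligned over as few as 204 bases, and without Klk1 the lowest identity was 82.4%. Klk1b27 and Klk1b21 were 94.5% identical, and their effects in the Ins2 sort were -1.11 and 0.05. Klk1b26 and Klk1b16, which both rose in that sort, were 92.0% identical to each other and 86.2% and 85.1% identical to Klk1b27. The most identical pair, Klk1b21 and Klk1b24 (97.7%), had differences between the sorts of 1.39 and 0.76.

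**Figure D3:**
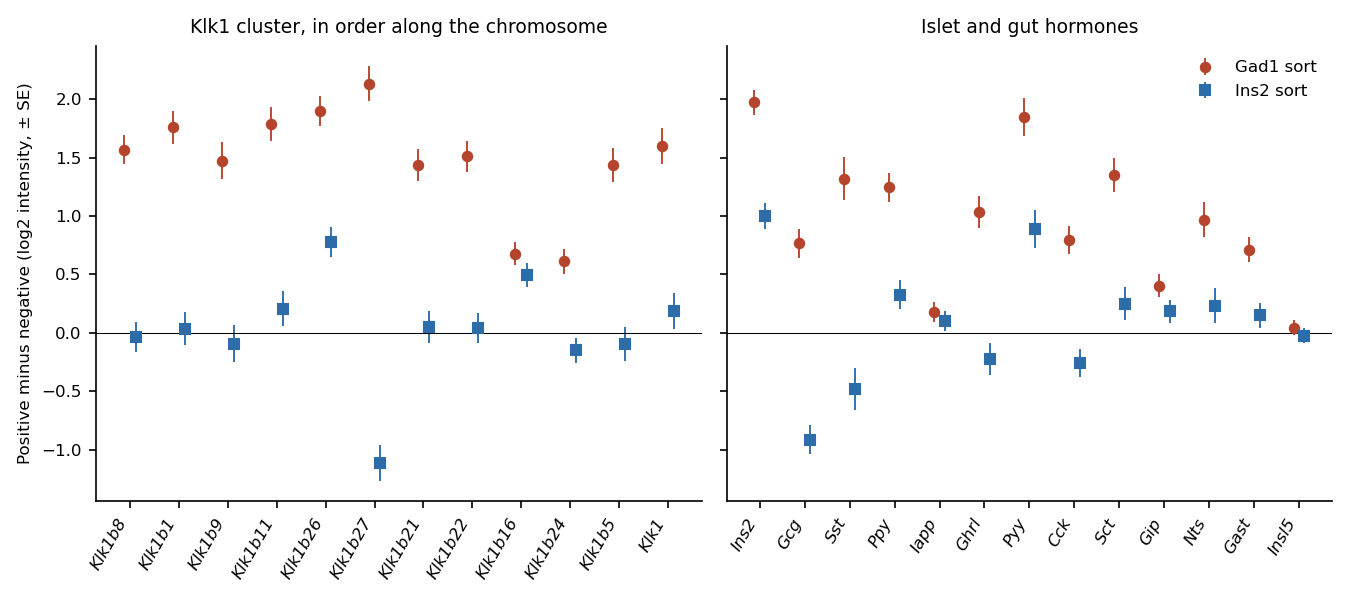
Effects of the Gad1 reporter (red circles) and the Ins2 reporter (blue squares) in log2 intensity with the SE of the fit, for the Klk1 cluster in chromosomal order and for islet and gut hormones. The Klk1b27 effects, 2.13 and -1.11, lie furthest apart.

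Hormone genes of the pancreatic islet and gut rose with the Gad1 reporter, and most did not follow the Ins2 reporter. Of 13 tested, 11 rose in the Gad1 sort (median 0.97), whereas 3 rose and 2 fell in the Ins2 sort (median 0.15). For 10 of 13 the Gad1 effect was higher (76.9%), Ins2 itself among them, and for none was it lower. Gcg, the glucagon gene of islet alpha cells, was at 8.56, 8.46 and 8.41 in Gad1-negative and 9.40, 9.07 and 9.25 in Gad1-positive cells. It was at 8.66, 8.24 and 8.31 in Ins2-negative and 7.41, 7.48 and 7.58 in Ins2-positive cells. It rose in one sort and fell in the other with no overlap of arrays, and the difference was 1.68 (SE 0.18, adjusted p = 2.8e-07). Sst, the somatostatin gene, rose by 1.32 and fell by 0.48, and the fall had an adjusted p of 0.046. The gut hormone genes Ghrl, Sct and Cck rose in the Gad1 sort by 1.04, 1.35 and 0.80 and were not called in the Ins2 sort. Pyy rose in both, by 1.85 and 0.89. Ins2 stood beside Pyy and Ppy as the hormone genes that rose in the Ins2 sort. The beta cell peptide Iapp was near background, with no array above 7.04, and its difference of 0.08 was not called. In this list 8 genes lay in the shortest-span group, and 7 of them had a higher Gad1 effect, against 18.7% of all genes in that group.

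Genes of neuroendocrine regulation and secretory granules followed less evenly. Of 17, 4 had a higher Gad1 effect (23.5%, against 11.3% of all genes) and none a lower one, with a median difference of 0.24. The granule protein genes Scg2 and Chga rose in the Gad1 sort by 0.83 and 0.57 and were not called in the Ins2 sort. Isl1, a transcription factor of islet and nerve cells, fell in both sorts, by 0.49 and 1.31. Insm1, a regulator of endocrine differentiation, also fell in both, by 0.60 and 0.94, and the difference of 0.34 was not called. The beta cell regulators Pdx1 and Mafa were near background, at 6.52 to 6.82 over all arrays, with no call in either sort.

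Most GABA pathway genes tested, Gad1 among them, rose in the Gad1 sort. Of 7 tested of 14 listed, 5 rose and 1 fell there (median 0.50), and 1 rose and 1 fell in the Ins2 sort (median -0.02). The difference went both ways, as 3 had a higher Gad1 effect and 2 a higher Ins2 effect. Slc6a13, a GABA transporter, rose by 0.76 in the Gad1 sort and had an effect of -0.02 in the Ins2 sort. Abat, which breaks GABA down, differed by 0.43 (adjusted p = 0.044), a call not kept in every fit without 1 array. Aldh5a1, the next enzyme of GABA breakdown, fell by 0.77 in the Gad1 sort. Gabrp, a GABA receptor subunit of epithelia, was at 7.03, 7.08 and 6.92 in Gad1-negative and 7.76, 8.09 and 8.02 in Gad1-positive cells. In Ins2-negative cells it was at 7.33, 7.28 and 7.44, and in Ins2-positive cells at 9.64, 9.30 and 9.15. It rose in both sorts without overlap, and more with Ins2 (difference -1.07, SE 0.18, adjusted p = 0.0001). Slc32a1, the vesicular GABA transporter, was not called (difference 0.22, 95% interval -0.08 to 0.51). Of 9 neuron genes, 3 had a higher Gad1 effect and 1 a higher Ins2 effect, led by the neuronal splicing factor Rbfox3 (1.39, SE 0.17), which rose by 0.84 and fell by 0.55. Some of these calls lay near background. Gap43, higher with Gad1 (0.67), was detected on no Gad1-negative and no Ins2-positive array. Tubb3, higher with Ins2 (-0.29), lay at 6.89 or below on all arrays, and its call was not kept in every fit without 1 array.

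Digestive enzymes of the exocrine pancreas rose with Gad1 and were split with Ins2. Of 17, 14 rose in the Gad1 sort (median 0.65), and 4 rose and 3 fell in the Ins2 sort (median 0.03). The Gad1 effect was higher for 11 (64.7%) and lower for none. Amy2a5, the pancreatic amylase, was at 7.66, 7.70 and 7.47 in Gad1-negative and 8.43, 8.96 and 8.80 in Gad1-positive cells. In Ins2-negative cells it was at 8.32, 8.15 and 8.27, against 7.70, 7.49 and 7.41 in Ins2-positive cells. The difference was 1.84 (SE 0.18, adjusted p = 1e-07), with groups apart in opposite order. The elastase Cela3b and the trypsin Try4 also rose with Gad1 (0.89 and 0.63) and fell with Ins2 (-0.35 and -0.28). Spink1, a trypsin inhibitor, rose in both, by 2.79 and 2.24. Pnliprp2, a lipase relative, was detected on no Gad1-negative array and was at least 1.51-fold higher in Gad1-positive cells. It was 2.22-fold higher in the Ins2 sort, and its difference of -0.47 was not called (95% interval -1.07 to 0.13). In this list 7 genes lay in the shortest-span group, 5 of them with a higher Gad1 effect. Of the salivary and lacrimal genes, 6 lay in that group, 4 with a higher Gad1 effect.

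Salivary, lacrimal and mammary genes also leaned toward Gad1, with exceptions. Of 11 salivary and lacrimal genes, 7 had a higher Gad1 effect and 2 a higher Ins2 effect (median 0.54). Dcpp1, a secretory protein of the sublingual gland, was at 8.43, 8.58 and 8.25 in Gad1-negative and 10.35, 10.13 and 10.15 in Gad1-positive cells. It was at 9.01 on all 3 Ins2-negative arrays and at 8.68, 9.00 and 9.13 in Ins2-positive cells, which overlap. Aqp5, the water channel of secretory glands, was at 7.05, 7.06 and 7.07 in Gad1-negative and 7.36, 7.59 and 7.41 in Gad1-positive cells. In the Ins2 sort it went from 7.33, 7.10 and 7.08 to 9.39, 8.95 and 8.60. It rose in both, and far more with Ins2 (difference -1.42, SE 0.20, adjusted p = 1.2e-05). Of 6 milk protein genes, 5 had a higher Gad1 effect (83.3%) and none a lower one (median 1.40). The casein gene Csn2 was bright, at 12.29, 12.62 and 12.45 in Gad1-negative and 13.92, 13.76 and 13.76 in Gad1-positive cells. It fell from 12.15, 12.45 and 12.17 in Ins2-negative to 11.89, 11.90 and 11.87 in Ins2-positive cells, a difference between the sorts of 1.73 (SE 0.14, adjusted p = 7.1e-09). Csn1s1 and Csn1s2b likewise rose (1.15 and 0.79) and fell (-0.59 and -0.60).

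**Figure D4:**
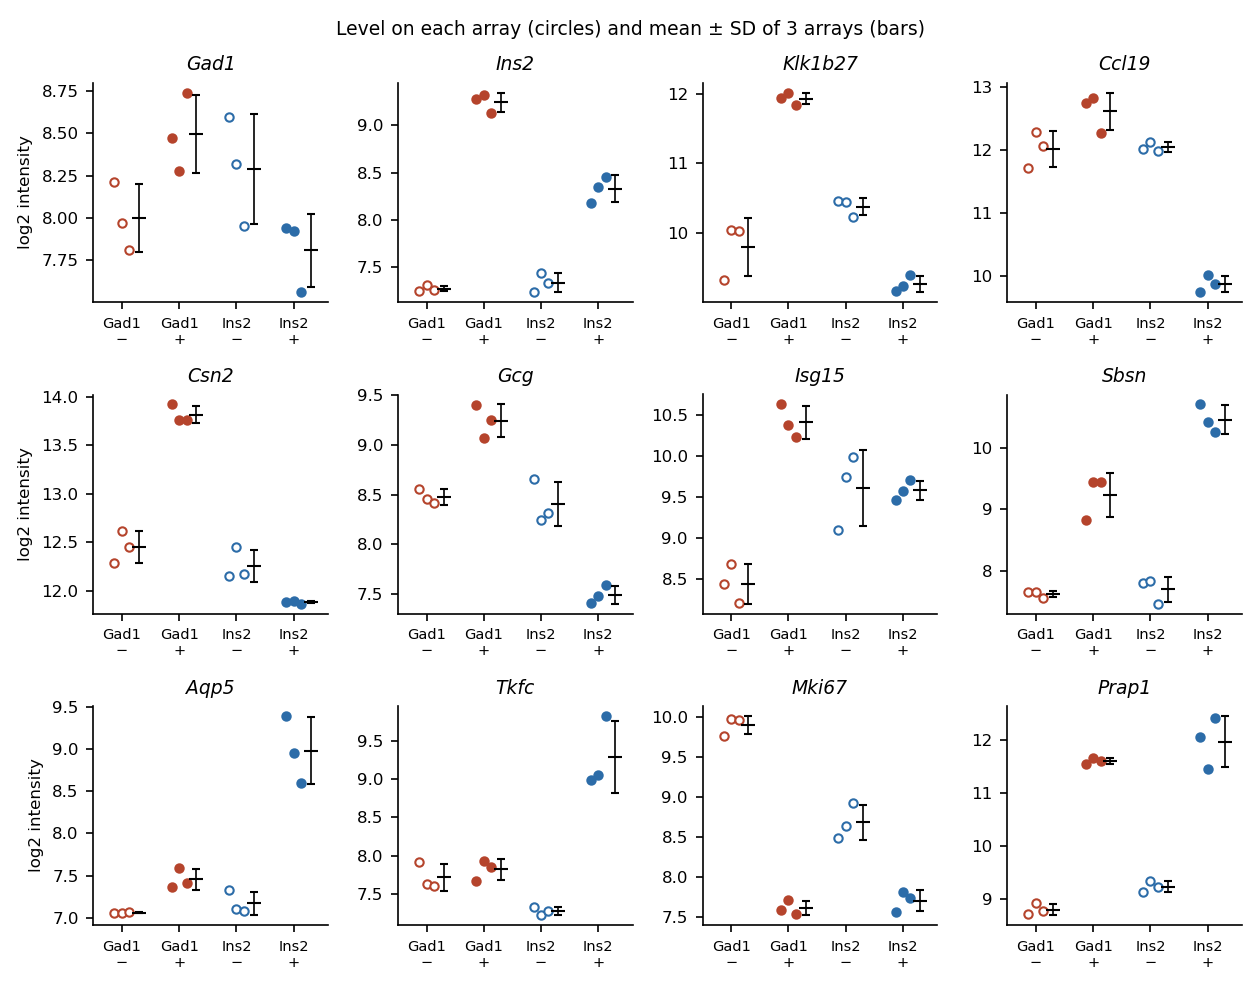
Log2 intensity of 12 genes on each of the 12 arrays, with open circles for negative and filled circles for positive cells, red for the Gad1 sort and blue for the Ins2 sort, and bars for the mean and SD of 3 arrays. Klk1b27, Csn2 and Gcg go up in the Gad1 sort and down in the Ins2 sort, whereas Prap1 goes up in both.

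Liver, gut and airway genes mostly rose in both sorts and divided gene by gene. Of 18 liver genes, 14 rose in the Gad1 sort and 10 rose and 1 fell in the Ins2 sort. The Gad1 effect was higher for 7 (38.9%) and lower for 1. Apoa2, an apolipoprotein, rose by 1.09 with Gad1 and fell by 0.56 with Ins2 (difference 1.65, SE 0.23). The fibrinogen chain gene Fgg rose by 1.04 and had an effect of -0.23, which was not called. Ttr, the thyroxine carrier, was the gene with a higher Ins2 effect, at 2.37 and 3.28 (difference -0.92, adjusted p = 0.019), a call not kept in every fit without 1 array. Apoc3 rose by 2.64 and 2.31, and its difference of 0.33 was not called. Of 21 intestinal genes, 16 rose in each sort, with medians of 1.53 and 1.16, and 3 had a higher Gad1 effect and 4 a higher Ins2 effect. The 4 were the gut peptides Guca2a and Guca2b, the antimicrobial lectin Reg3b and the apolipoprotein Apoa4. Reg3b was at 9.28, 9.58 and 9.22 in Gad1-negative and 11.41, 11.84 and 11.48 in Gad1-positive cells. It went from 9.48, 9.41 and 9.27 to 12.39, 12.34 and 12.94 in the Ins2 sort, a larger rise (difference -0.96, SE 0.21, adjusted p = 0.0021). The goblet cell genes Zg16 and Muc2 went the other way, with rises of 1.53 and 1.34 in the Gad1 sort and effects of 0.35 and 0.45 in the Ins2 sort. Of 15 lung and airway genes, 8 rose in each sort, and 1 differed in each direction (6.67%, against 11.3% and 8.81% of all genes). They were Scgb1a1, the club cell secretoglobin, which rose by 2.57 and 1.02, and Bpifa1, an airway defence protein, which rose by 1.75 and 2.78. In the airway list 8 genes lay in the shortest-span group and 1 of them had a higher Gad1 effect. The counts were also 8 and 1 in the intestinal list. They were 12 and 5 for cornified keratinocyte genes, 10 and 2 for immediate early and heat shock genes, and 6 and 2 for skeletal muscle genes.

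Cornified keratinocyte genes rose strongly with both reporters. Of 23, 20 rose in each sort, with medians of 1.85 and 1.58. The Gad1 effect was higher for 8 (34.8%) and lower for 3 (13.0%). Krtdap, a secreted keratinocyte protein, was at 9.34, 9.65 and 9.50 in Gad1-negative and 12.60, 12.78 and 12.76 in Gad1-positive cells. In the Ins2 sort it went from 10.81, 10.93 and 10.79 to 12.83, 12.57 and 12.64. The groups did not overlap in either sort, and the rises were 3.22 and 1.84 (difference 1.38, SE 0.16, adjusted p = 9.6e-07). The suprabasal keratin Krt10 rose by 3.32 and 2.27, and the envelope protein Lor by 2.59 and 1.52. Sbsn, a suprabasal secreted protein, was at 7.66, 7.65 and 7.56 in Gad1-negative and 8.82, 9.45 and 9.44 in Gad1-positive cells. In the Ins2 sort it went from 7.80, 7.84 and 7.47 to 10.70, 10.42 and 10.25, a larger rise (difference -1.14, SE 0.22, adjusted p = 0.00051). The protease inhibitor Spink5 (0.59 and 1.90) and the transglutaminase Tgm1 (0.46 and 1.35) also rose more with Ins2. Krt6b, a keratin of activated epidermis, rose by 0.92 and 2.34. With provisional names left out, it had the largest such difference called in every fit among genes not detected in all groups. Slurp1, a secreted epidermal protein detected on no Gad1-negative array, was at least 1.99-fold higher in Gad1-positive cells. For Ivl, Flg, Casp14 and Asprv1, genes of the terminal layers, the difference was not called.

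Most tuft cell genes rose in both sorts. Of 18, 16 rose in the Gad1 sort and 14 in the Ins2 sort, 5 with a higher Gad1 effect (27.8%) and 1 with a higher Ins2 effect. Gnat3, the taste G protein, was at 7.15, 7.54 and 7.71 in Gad1-negative and 9.84, 9.49 and 10.02 in Gad1-positive cells. It was at 8.97, 8.67 and 8.10 in Ins2-negative and 9.57, 8.58 and 8.62 in Ins2-positive cells, which overlap. The difference was 1.98 (SE 0.31, adjusted p = 5.4e-05). The leukotriene pathway gene Alox5ap rose by 2.48 and 1.13, the actin-binding Avil by 2.47 and 1.52, and the adaptor Sh2d6 by 2.26 and 1.34. The channel Trpm5 rose by 1.45 and 1.50 (difference -0.05, 95% interval -0.51 to 0.42). Of 9 microfold cell genes, 3 had a higher Gad1 effect and 2 a higher Ins2 effect. Gp2, a microfold cell receptor and another of the study's sorted antigens, rose by 2.48 and 1.70 (difference 0.78, SE 0.18, adjusted p = 0.0031). Tnfaip2 and the transcription factor Sox8 were called up in the Ins2 sort alone, by 1.36 and 1.05, with differences of -1.05 and -0.96 that were called. In the Gad1 sort Tnfaip2 had an effect of 0.31 that was not called (limma adjusted p = 0.082). Tnfrsf11b, a decoy receptor for the cytokine RANKL, rose by 0.48 with Gad1 and fell by 0.73 with Ins2.

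**Figure D5:**
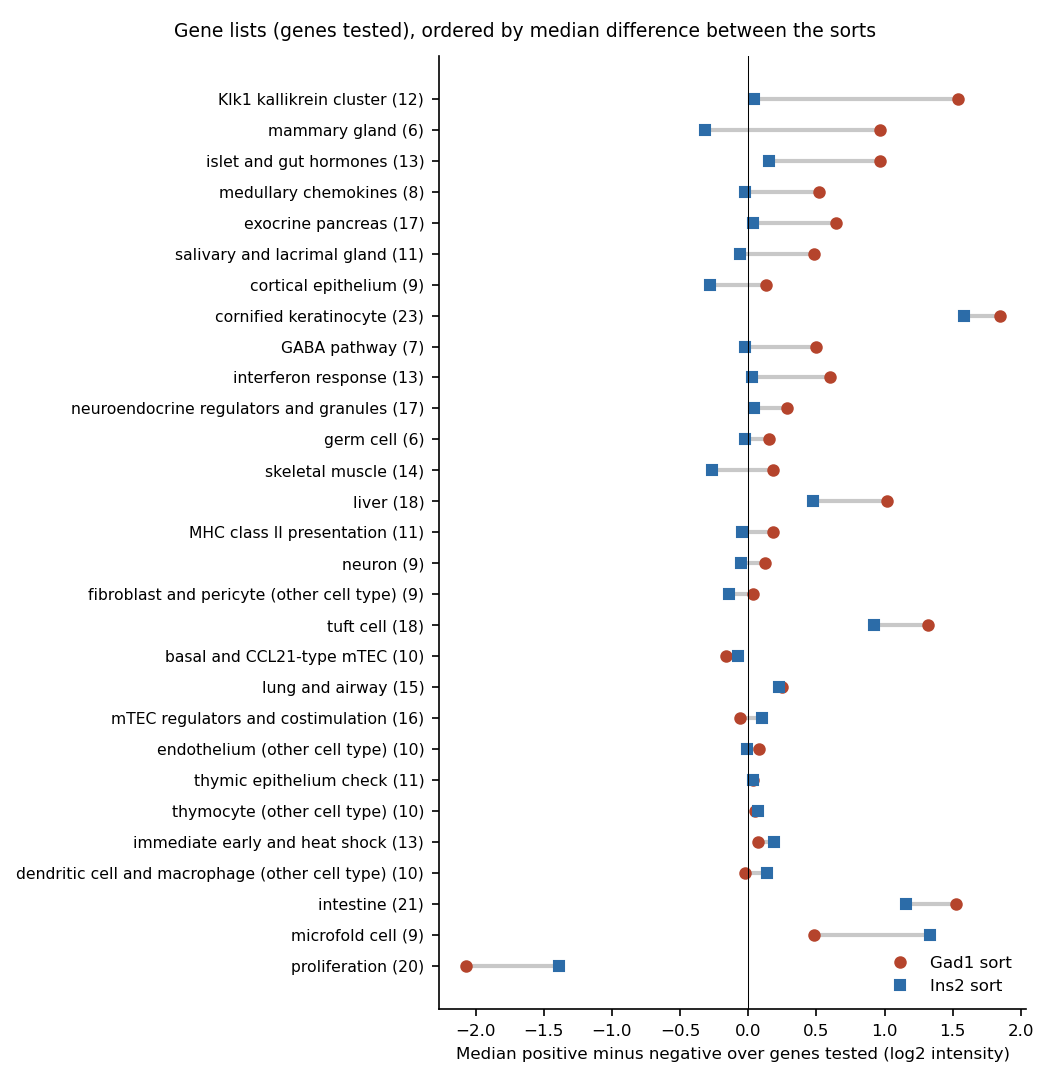
Median effect over the tested genes of each list (number in brackets) in the Gad1 sort (red circles) and the Ins2 sort (blue squares), in log2 intensity, for lists with at least 6 tested genes. The Klk1 cluster, with medians of 1.54 and 0.04, stands at the top and proliferation genes, with -2.07 and -1.39, at the bottom.

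Of 8 medullary chemokine genes, 5 rose and 1 fell in the Gad1 sort, and 3 rose and 4 fell in the Ins2 sort. Ccl19, which attracts mature T cells and dendritic cells, was at 11.71, 12.28 and 12.06 in Gad1-negative and 12.74, 12.82 and 12.28 in Gad1-positive cells. The highest negative and lowest positive arrays met at 12.28. It fell from 12.01, 12.13 and 11.99 in Ins2-negative to 9.76, 10.02 and 9.88 in Ins2-positive cells, a wide gap. The effects were 0.60 and -2.16, and the difference was 2.76 (SE 0.20, adjusted p = 9.2e-10). Cxcl10, an interferon-induced chemokine, rose by 0.55 and fell by 1.56. Xcl1, which draws dendritic cells to the medulla, rose by 1.28 and fell by 0.38. Ccl21a, a chemokine that draws thymocytes to the medulla, fell in both sorts, by 0.41 and 1.11 (difference 0.70, adjusted p = 0.0084). Of the 8 medullary chemokines, 4 had a higher Gad1 effect and 1 a higher Ins2 effect. All 4 were among the 7 of the list in the shortest-span group. Of 13 interferon response genes, 8 rose in the Gad1 sort and none fell, whereas 3 rose and 1 fell in the Ins2 sort, and 5 had a higher Gad1 effect (38.5%) and 1 a higher Ins2 effect. Isg15, a ubiquitin-like protein, was at 8.43, 8.68 and 8.20 in Gad1-negative and 10.63, 10.38 and 10.23 in Gad1-positive cells. It was at 9.09, 9.74 and 9.99 in Ins2-negative and 9.47, 9.57 and 9.71 in Ins2-positive cells, which lay within the range of the negative arrays. The difference was 2.00 (SE 0.24, adjusted p = 2.1e-06). Oasl1 and Oasl2, genes of the antiviral response, rose in both sorts, by 1.36 and 1.23 and by 0.60 and 0.52.

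Of 16 regulators of mTECs and costimulatory genes, none had a higher Gad1 effect and 4 had a higher Ins2 effect (25.0% against 8.81% of all genes), with a median of -0.01. Aire was at 12.85, 12.89 and 12.75 in Gad1-negative and 12.71, 12.77 and 12.85 in Gad1-positive cells, which overlap. It was at 12.56, 12.39 and 12.27 in Ins2-negative and 11.98, 12.03 and 12.11 in Ins2-positive cells, which do not. It fell by 0.37 in the Ins2 sort, but the difference of 0.31 did not pass the test (95% interval 0.04 to 0.59, adjusted p = 0.10). Fezf2 (0.31, interval 0.07 to 0.55, adjusted p = 0.061) and the costimulatory ligand Cd80 (0.18, interval -0.29 to 0.64, adjusted p = 0.65) were not called either. The intervals do not show that the reporters act alike on these genes. The 4 with a higher Ins2 effect were Chd4, a chromatin remodeller (-0.69), the receptors Ltbr (-0.56) and Tnfrsf11a (-0.50), and Nfkb2, a noncanonical NF-kB subunit (-0.66). The calls of Ltbr and Nfkb2 were not kept in every fit without 1 array. For Chd4, 1 of its 2 other probes had the opposite sign. The coinhibitory ligand Cd274 rose in both sorts, by 0.69 and 0.52.

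Of 11 genes of MHC class II presentation, 3 had a higher Gad1 effect and 2 a higher Ins2 effect (27.3% and 18.2%, against 11.3% and 8.81% of all genes), and 6 were not called. H2-DMa and H2-DMb2, chains of the peptide-loading factor, and H2-Ob had a higher Gad1 effect (0.69, 1.14 and 0.76). The H2-Ob call was not kept in every fit without 1 array. H2-Aa (-0.43, adjusted p = 0.047) and Cd74, the invariant chain (-0.40, adjusted p = 0.021), had a higher Ins2 effect, and neither call was kept in every fit without 1 array. Of 9 cortical epithelial genes, 5 had a higher Gad1 effect and none a lower one (median 0.41). Cxcl12 fell by 0.90 in the Ins2 sort and was at 0.19 in the Gad1 sort, and Tbata fell by 0.81 and was at 0.18. The proteasome subunit Psmb11 and the protease Prss16, which define the cortex, were dim, at no more than 6.89 and 7.37 on any array. In the basal and CCL21-type list, 3 of 10 genes differed in each direction. Pdpn, itself one of the study's sorted antigens, fell by 0.41 and 1.27. Krt5, a basal keratin, rose by 0.79 in the Ins2 sort and had an effect of -0.22 in the Gad1 sort.

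Proliferation genes fell in both sorts and fell further in the Gad1 sort. Of 20, 19 fell with Gad1 and 18 with Ins2, with medians of -2.07 and -1.39. The difference was called for 11 (against 8.81% of all genes), all with the deeper fall in the Gad1 sort. Mki67, a marker of cycling cells, was at 9.77, 9.97 and 9.96 in Gad1-negative and 7.60, 7.72 and 7.54 in Gad1-positive cells. It was at 8.49, 8.64 and 8.92 in Ins2-negative and 7.56, 7.82 and 7.74 in Ins2-positive cells. Positive and negative cells lay apart in both sorts, and the difference was -1.30 (SE 0.18, adjusted p = 9e-06). The median level of the list was 9.58 ± 0.27 (SD, n = 3) in Gad1-negative, 8.59 ± 0.26 in Ins2-negative, 7.52 ± 0.07 in Gad1-positive and 7.12 ± 0.10 in Ins2-positive cells. The fall in the Ins2 sort thus began lower and ended nearer the lowest detected signal, 6.62 to 6.64 on the Ins2-positive arrays. The part of this limit in the shallower fall was not tested. The replication helicase subunit Mcm5 fell by 2.48 and 1.45 and the mitotic kinase Pbk by 2.84 and 1.90. Cdk1, the mitotic cyclin-dependent kinase, fell by 2.01 and 1.89, a difference of -0.13 that was not called (95% interval -0.58 to 0.32). In bulk RNA, fewer cells of a type and less RNA per cell cannot be told apart.

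With provisional names left out, the largest single-gene differences toward Gad1 were mostly falls in the Ins2 sort joined to rises in the Gad1 sort. S100a8, a calcium-binding protein of myeloid cells and inflamed epithelium, was at 12.32, 12.59 and 12.28 in Gad1-negative and 13.65, 13.73 and 13.88 in Gad1-positive cells. It fell from 12.68, 12.55 and 12.24 to 10.82, 10.85 and 10.67 in the Ins2 sort, a difference of 3.06 (SE 0.16, adjusted p = 7.1e-12). Sncg, a synuclein of sensory neurons, differed by 3.04, and Tsc22d1, a transcriptional regulator, by 3.00. The matrix protein Mgp was at 10.01, 10.57 and 10.71 in Ins2-negative and 7.77, 8.06 and 8.05 in Ins2-positive cells, and it rose by 0.53 in the Gad1 sort (difference 3.00). Pth, the parathyroid hormone gene, was uneven between arrays, at 10.28, 10.09 and 8.34 in Ins2-negative and 6.93, 8.51 and 6.82 in Ins2-positive cells. Its difference of 2.81 had a wide error (SE 0.49, 95% interval 1.80 to 3.83). S100a1, Svs4, a seminal vesicle protein, and Lyz2, a lysozyme of macrophages, rose with Gad1 (1.54, 1.51 and 1.33) and fell with Ins2 (-1.17, -1.05 and -0.98). For Lyz2, 1 of its 2 other probes had the opposite sign.

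The largest differences toward Ins2, again without provisional names, were smaller and included enzymes and housekeeping genes. Tkfc, a kinase of triose metabolism, was at 7.92, 7.63 and 7.61 in Gad1-negative and 7.67, 7.94 and 7.86 in Gad1-positive cells, which overlap. It rose from 7.34, 7.23 and 7.27 to 8.99, 9.05 and 9.82 in the Ins2 sort, a difference of -1.90 (SE 0.22, adjusted p = 1.1e-06). Treh, the trehalase of the gut brush border, rose by 0.51 and 1.93, and F10, coagulation factor X, by 0.43 and 1.90. Pigt, which attaches GPI anchors, fell from 9.29, 9.32 and 9.58 to 8.19, 8.14 and 8.75 in the Gad1 sort. It rose from 9.07, 8.88 and 9.34 to 9.62, 9.77 and 9.75 in the Ins2 sort. Its difference was -1.65 (SE 0.21), although 1 of its 2 other probes had the opposite sign. Psmd13, a proteasome subunit, and Pkm, the pyruvate kinase, also fell with Gad1 (-0.52 and -0.65) and rose with Ins2 (0.68 and 0.52). For Ap2b1 and Rab11fip4, with differences of -1.48 and -1.56, no other kept probe of the gene (3 and 1) had the same sign.

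Some of the strongest effects were alike in both sorts. Prap1, a secreted protein of gut and uterus, was at 8.72, 8.92 and 8.78 in Gad1-negative and 11.55, 11.66 and 11.60 in Gad1-positive cells. It went from 9.13, 9.35 and 9.23 to 12.05, 11.46 and 12.42 in the Ins2 sort. The rises were 2.80 and 2.74, and the difference was 0.06 (95% interval -0.40 to 0.52). Lgals7, a galectin of stratified epithelium, rose by 2.75 and 2.95, the cornified envelope gene Sprr2d by 3.09 and 2.71 and the membrane mucin Muc13 by 2.98 and 2.64. The growth factor Mdk fell by 2.09 and 1.94 (difference -0.16, 95% interval -0.48 to 0.17). The histone genes H2ac15 and H2ac12 fell by 2.41 and 2.37 and by 2.42 and 2.29.

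Several defining markers of other cell types were dim, but summed levels of some lists, which bright members weigh most, moved with the reporters. Of 10 thymocyte genes, 2 differed in each direction, and Rag1, Dntt and Themis, which define developing thymocytes, lay at 6.95 or below on all arrays. Other thymocyte genes were brighter, and the list median was 6.98 to 7.30 on the Gad1-positive arrays. The summed intensity of that list was 2048 to 2260 in Gad1-positive and 2021 to 2340 in Ins2-positive cells, against 2221 to 2661 and 1918 to 1985 in the matching negative cells. Of 10 dendritic cell and macrophage genes, 2 differed in each direction, and their sum was 4780 to 6899 in Gad1-positive against 2840 to 3380 in Gad1-negative cells. The sum leans on Lyz2, at 10.19 to 10.95 in Gad1-negative and 11.68 to 12.36 in Gad1-positive cells (log2). The median effect of the list in the Gad1 sort was -0.02, with 2 genes up and 1 down. Flt3, Cx3cr1 and Fcgr3 lay at 6.91 or below on all arrays, and other members were brighter. In the Ins2 sort the sum was 2188 to 2354 in positive and 2606 to 3274 in negative cells. Of 9 fibroblast and pericyte genes, 3 had a higher Gad1 effect (33.3% against 11.3% of all genes), Mgp, Dcn and Col1a1, and none a higher Ins2 effect. The sum of the list was 3364 to 4360 in Ins2-negative and 2146 to 2348 in Ins2-positive cells, against 2928 to 3354 and 3278 to 4278 in Gad1-negative and Gad1-positive cells. That sum leans on Mgp, at 10.01 to 10.71 in Ins2-negative and 7.77 to 8.06 in Ins2-positive cells (log2). The median effect of the list in the Ins2 sort was -0.14, with 1 gene up and 3 down. The collagens Col1a2 and Col3a1 lay at 6.93 or below on all arrays, and other members were brighter. Of 10 endothelial genes, 1 differed in each direction (10.0%, near the shares of all genes), and neither of the 2 B cell genes tested differed. Of 7 erythroid genes, chosen after their values were seen, 5 rose in the Gad1 sort, and 3 fell and 1 rose in the Ins2 sort. The difference was called toward Gad1 for 4, the globin genes Hba-a1 (2.14), Hbb-y (1.94), Hbb-b1 (1.82) and Hbb-bh1 (1.12), and not for Hbb-b2, Alas2 or Klf1. Hba-a1 was at 9.46, 9.62 and 10.07 in Gad1-negative and 10.31, 10.14 and 11.09 in Gad1-positive cells, and it fell from 9.74, 9.72 and 9.32 to 8.41, 8.17 and 8.19 in the Ins2 sort. Whether red cell RNA had a part in these values was not tested. The part of other cell types in the differences of S100a8, Lyz2 and Mgp was not tested either.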

How the data were processed

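Total RNA of sorted mouse mTECs was hybridised to Illumina bead arrays. The deposited series table holds an intensity for each of 46089 probes, normalized by the authors in a way not given in the sources used here and kept linear. Its log2 values were used. A second deposited table gives, per the file headers, unnormalized intensity and detection p-value per probe. Where Ins2-negative replicate 2 should have its intensity, that table repeats a detection p-value column of Ins2-positive replicate 1. This 1 column of per-sample values was not used, and the array kept its series values and its own detection p-values. The tables name probes differently. They were linked by nearest values over 34 arrays, which linked all 46089 probes (median distance ratio 0.0377). As a check, series values and reversed detection p-values of the remaining array correlated at 0.989 (Spearman), and at 0.0008 with shuffled links.

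The detection threshold was a p-value of 0.05. The probe with the highest mean represented its gene. Group means were fitted with limma 3.58.1 (lmFit, eBayes with a variance trend) in R 4.3.3 over the 24770 kept probes, with 8 residual degrees of freedom. P-values were adjusted by Benjamini and Hochberg with a threshold of 0.05. Slide and scan are not given in the sources used here. Where no array of the dimmer group detected a gene, its fold is a lower bound, against the lowest detected signal of each array or the gene's own if higher. Symbols came from the platform annotation, updated to GRCm38.p6 names. The 30 gene lists and the rule for named genes were chosen with earlier results of these data known. The rule takes Gad1, Ins2, Ins1, Gad2, Gp2, Aire, Fezf2, Cd80, H2-Aa and Ccl21a where tested. Among genes called with 1 sign in every fit that left out an array, it takes the 8 largest differences in each direction if detected in all groups and the 3 largest otherwise. It adds the 6 most opposite genes of each kind, the 4 strongest alike up and down, and from each list up to 3 members with the smallest adjusted p plus those needed to describe it. Ribosomal, respiratory chain, proteasome, haemoglobin, keratin, defensin and chemokine families, genomic span and the promoter motifs were added after the values were seen. Same-numbered arrays of a sort correlated in their deviations at -0.08 to 0.16, so the numbers were not used as pairs. Alternatives were quantile normalization, median scaling, an offset of 16, no and stricter detection filters, a fit on 1 probe per gene, all 35 arrays, array weights, no variance trend, the replicate number as a block, each array left out and neqc of the unnormalized intensities (11 arrays). The fit was tested on simulated data.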

Additional observations from a re-analysis of the deposited data

Results flagged for a closer look

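Some transcripts moved in one direction with the Gad1 reporter and in the other with the Ins2 reporter, or by different amounts, and the difference of differences itself passed the limma test. Gad1 (0.98) and Ins2 (0.97), the sorted antigens' own transcripts, were among them. Opposite genes were ranked by the smaller of their 2 absolute effects. The first that rose with Gad1 and fell with Ins2 were Klk1b27 (3.25), S100a8 (3.06), Tsc22d1 (3.00), S100a1 (2.71), Svs4 (2.55) and Lyz2 (2.31). In the reverse arrangement they were Pigt (-1.65), Psmd13 (-1.20), Pkm (-1.17), Spc24 (-1.16), Fes (-1.14) and Lmf1 (-1.08). Sncg (3.04), Mgp (3.00) and Ccl19 (2.76) also rose with Gad1 and fell with Ins2, and Rab11fip4 (-1.56) and Dync1h1 (-1.47) did the reverse. Their differences exceeded several of those listed, but their smaller effect ranked lower. All values are log2, Gad1 effect minus Ins2 effect. Groups of 3 arrays are too small for a test of single arrays that stand apart.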

How the results depend on the processing

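The 12 arrays, with 3 per group, limit the precision, and the deposited series values are compressed for dim probes. In the alternatives run, 2409 to 3885 differences were called against 3339 as reported, and none was called in the opposite direction. The share with a higher Gad1 effect was 54.1% to 63.9% (56.1% as reported), the top value with median scaling, which made 2139 calls toward Gad1 and 1211 toward Ins2 and moved the median difference from -0.01 to 0.02. With neqc of the unnormalized intensities on 11 arrays, 928 genes had a higher Ins2 effect, the opposite calls numbered 197 and 47, and Gad1 was at -0.67 in the Ins2 sort (adjusted p = 0.061). The Ins2 transcript rose by 2.85 and 1.72 there, against 1.97 and 1.00 as reported. The cause was not tested. Leaving out 1 array gave 1511 to 1800 calls toward Gad1 and 1033 to 1408 toward Ins2, and 49 to 84 genes down with Gad1 and up with Ins2. It gave a Gad1 transcript effect of 0.38 to 0.61 in the Gad1 sort and -0.65 to -0.33 in the Ins2 sort. With the replicate number as a block, 1909 and 1554 differences were called, 3220 of them as without it, and the differences of Gad1 and Ins2 stayed at 0.98 and 0.97. Same-numbered arrays did not qualify as pairs. Of 108 called named genes beside Gad1 and Ins2, 94 had the same call in every alternative, 10 lost it without 1 array and 6 with neqc, and none reversed. Many of these genes were chosen for a call kept in every fit without 1 array, or for a small adjusted p in their list. Their stability was therefore partly fixed in advance. Of all 3339 called differences, 2106 were kept in every fit without 1 array.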

Other observations

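Defensins and chemokines, taken as families by name after the values were seen and therefore without a test of the family, lay on the Gad1 side. Of 31 defensin genes, 16 had a higher Gad1 effect and none a higher Ins2 effect (against 11.3% and 8.81% of all genes), with a median of 0.38. Their median intensity was 6.77 to 7.28 per array (log2), close to the lowest detected signal of 6.58 to 6.76. Of 29 chemokine genes, 16 had a higher Gad1 effect and 1 a higher Ins2 effect, with a median of 0.69. Cxcl13, which draws B cells, was at 9.06, 9.51 and 9.15 in Gad1-negative and 10.08, 10.12 and 9.94 in Gad1-positive cells. It fell from 9.42, 9.32 and 8.90 to 8.10, 7.56 and 7.56 in the Ins2 sort, with no overlap in either. Of 44 keratin genes, 29 rose with Gad1 and 23 with Ins2, and the differences were called in both directions, 9 toward Gad1 and 7 toward Ins2. Of 34 proteasome genes, 3 differed in each direction (8.82%, near the shares of all genes). From the fixed lists, 3 of 14 skeletal muscle genes, 3 of 6 germ cell genes and 2 of 13 immediate early and heat shock genes had a higher Gad1 effect and none a higher Ins2 effect, against 11.3% and 8.81% of all genes. The last of these shares, 15.4%, lies near that of all genes, and the median difference of that list was -0.12.

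Across all 12 groups of the study, Ins2 intensity was highest in Gad1-positive cells, at 9.24 ± 0.10 (SD, n = 3), followed by Pdpn-negative (8.71 ± 0.08), Tspan8-negative (8.68 ± 0.26), Cea1-positive (8.62 ± 0.05) and Ins2-positive cells (8.33 ± 0.14). Gad1 intensity was highest in Gp2-negative (9.09 ± 0.15) and Cea1-negative cells (8.86 ± 0.12), and stood at 8.50 ± 0.23 in Gad1-positive cells. Rps7 averaged 10.05 ± 0.13 in Ins2-positive and 11.39 ± 0.11 in Tspan8-positive cells, and at least 12.08 elsewhere. Gp2-positive cells had 2 arrays. The sorts differ in array scale, so this order across sorts is a description.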
